A study of Mus musculus with 2 samples.

Results

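Chromosome 11 of mouse MEL cells held 6098 of the 38300 peaks of H3K27me3 that were deposited as replicated, or 15.9% of them. A peak is a stretch of the genome where DNA pulled down with an antibody was enriched over a control. Membership was set by position alone: every replicated peak on chromosome 11 was taken, whatever its strength. The samples are 2 biological replicates of 1 group, assayed by chromatin immunoprecipitation followed by sequencing, and no treatment, genotype or time was compared. MEL is an immortalised mouse erythroleukaemia line, a leukaemic relative of red cell precursors that the labels list as the counterpart of the human K562 line. The labels give both replicates the same biosample record and do not say that they were grown as separate cultures, so their differences may be technical. Each replicate also has a peak list of its own. The replicated list was derived from both own lists and from a list called on the pooled reads, so the presence of a replicated peak in both own lists is not independent support.

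H3K27me3 is histone H3 carrying 3 methyl groups on lysine 27. Polycomb repressive complex 2 writes the mark through its catalytic subunits Ezh1 and Ezh2, and the Cbx subunits of Polycomb repressive complex 1 bind it. The mark is known from silent genes, above all developmental transcription factors and genes of other lineages, where it can sit in a small patch at a CpG-rich start or spread over many kilobases. In a blood cell line, genes of other tissues such as keratins or olfactory receptors are usually not expressed, with or without this mark.

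Sequences are shown because CpG islands are the classical sites of Polycomb recruitment, and the centres of these peaks were rarely CpG-rich. The first 3 are the strongest peaks of 100 to 300 bp, by the authors' −log10 p, in 3 of the 4 longest domains of the chromosome. The next 2 are the strongest such peaks within 5 kb of the starts of Olfr1395 and Abcc3, the protein-coding genes with the most peak bases around the start. The last is an exception chosen after its values were seen, a CpG-rich peak 22022 bp from the nearest start, that of the amino acid transporter gene Slc38a10. All are plus-strand GRCm38 (mm10) reference sequence, and capitals mark each CG dinucleotide.
Tanc2 domain, chr11:105886878-105887093: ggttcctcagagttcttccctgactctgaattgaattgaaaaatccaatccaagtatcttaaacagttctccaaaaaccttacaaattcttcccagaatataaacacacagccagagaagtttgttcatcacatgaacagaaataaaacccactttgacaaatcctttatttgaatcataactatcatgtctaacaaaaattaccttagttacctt
Skap1 longer domain, chr11:96740012-96740222: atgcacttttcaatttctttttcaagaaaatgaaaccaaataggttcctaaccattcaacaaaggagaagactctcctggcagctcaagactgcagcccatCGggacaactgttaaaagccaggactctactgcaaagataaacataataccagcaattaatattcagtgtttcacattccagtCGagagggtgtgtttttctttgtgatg
Skap1 shorter domain, chr11:96585587-96585853: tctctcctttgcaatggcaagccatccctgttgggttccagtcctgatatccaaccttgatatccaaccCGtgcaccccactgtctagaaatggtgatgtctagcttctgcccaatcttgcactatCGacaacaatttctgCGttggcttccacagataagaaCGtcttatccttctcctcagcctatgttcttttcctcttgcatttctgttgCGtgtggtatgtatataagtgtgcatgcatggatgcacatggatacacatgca
Olfr1395 start, chr11:49141328-49141592: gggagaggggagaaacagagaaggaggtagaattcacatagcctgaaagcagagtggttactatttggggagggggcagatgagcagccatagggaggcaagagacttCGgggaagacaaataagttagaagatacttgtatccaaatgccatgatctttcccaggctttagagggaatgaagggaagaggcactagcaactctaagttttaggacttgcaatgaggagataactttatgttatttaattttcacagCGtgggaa
Abcc3 start, chr11:94391919-94392089: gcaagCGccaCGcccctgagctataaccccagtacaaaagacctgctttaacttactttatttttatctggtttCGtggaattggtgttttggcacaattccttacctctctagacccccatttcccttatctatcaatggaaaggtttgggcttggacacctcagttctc
CpG-rich exception, chr11:120173247-120173488: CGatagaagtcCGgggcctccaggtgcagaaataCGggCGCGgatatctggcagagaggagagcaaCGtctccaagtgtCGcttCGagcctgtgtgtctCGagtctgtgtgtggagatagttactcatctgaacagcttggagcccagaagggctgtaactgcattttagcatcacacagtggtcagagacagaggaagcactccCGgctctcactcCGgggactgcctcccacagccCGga
The Tanc2 peak has 0 CG dinucleotides in 216 bp, the longer Skap1 domain's peak 2 in 211 bp and the shorter one's 5 in 267 bp. The Olfr1395 peak has 2 and the Abcc3 peak 3. The exception has 9 in its central 200 bp. Each of these peaks overlapped both own lists except that of Olfr1395, which had 209 bp in replicate 2 and 0 bp in replicate 1.

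Replicated peaks covered 2267867 bp, or 1.86% of the chromosome, and the own lists covered 2.05% in replicate 1 and 2.68% in replicate 2. The other 18 autosomes had a median of 0.377% covered and a range of 0.173% to 0.873%, so both replicates' values lay outside the range of the other autosomes in their own lists, which reached 1.13% in replicate 1 and 1.60% in replicate 2. With 1 group and 1 such chromosome no test of this difference is possible. Chromosome 11 had the highest GC content, 43.8%, and 13.4 protein-coding genes per Mb. Chromosome 7 had the next-highest GC content, 43.1%, and 13.9 genes per Mb, with 0.307% covered. The part of GC content and gene density in the difference was not tested. Single peaks were narrow, with a median of 296 bp and a range of 150 to 3679 bp, against a median of 275 bp on the other chromosomes. Most were weak by the authors' −log10 q, which gives the significance of enrichment over the control, adjusted for multiple testing, and not its size. It reached 2 in 1026 peaks, or 16.8%, where 10.9% of replicated peaks on all chromosomes reached it. Read depth is unknown, because the lists hold no read counts, so sequence without a peak cannot be taken as free of the mark. With 2 replicates, the value of each is given in place of a standard deviation.

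The peaks gathered in a few parts of the chromosome, and both replicates had the same dense parts. In bins of 1 Mb, 100 of the 119 bins with assembled sequence held a replicated peak, against 112 in replicate 1 and 113 in replicate 2. The 10 densest bins held 39.8% of all covered bases (36.1% of those of replicate 1 in its own 10 densest bins, and 34.1% of those of replicate 2). The median bin had 8602 covered bases. The densest bin, from 96 to 97 Mb, had 157450 covered bases (153693 in replicate 1's own list and 189255 in that of replicate 2). This bin holds the HoxB cluster of homeobox genes, which set position along the body axis, and Skap1, an adaptor protein of T-cell receptor signalling. The body of Skap1 had 83516 of these bases (78833 in replicate 1 and 94977 in replicate 2). The span from Hoxb13 to Hoxb1 had 11676, or 6.71% of its length (12666 and 21164 bases), where 1.86% of the whole chromosome was covered. The bin from 105 to 106 Mb, with most of the synaptic scaffold gene Tanc2, followed at 154748 bases (139986 in replicate 1 and 190985 in replicate 2). The bin from 83 to 84 Mb, with Schlafen genes and CC chemokine genes, had 103681 bases (102210 and 119462). The next was the bin from 94 to 95 Mb, around the transporter gene Abcc3 and the collagen gene Col1a1, with 92404 bases. It was followed by the bin from 58 to 59 Mb, with a row of olfactory receptor genes, at 80635 bases. The replicates swapped the order of the top bins: Tanc2's bin was the highest in replicate 2 and the bin of Skap1 and HoxB in replicate 1.

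**Figure D1:**
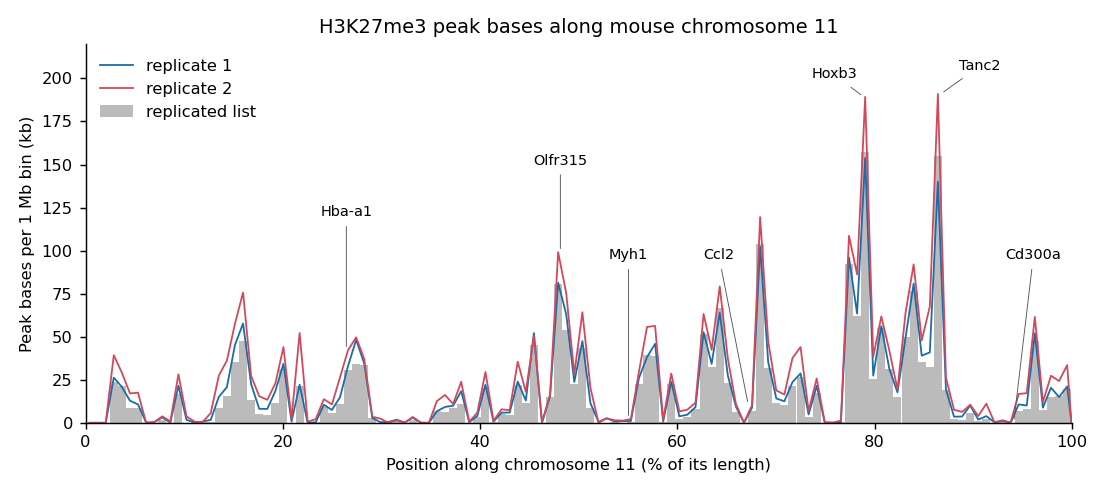
Peak bases (kb) in each 1 Mb bin against position along chromosome 11 (% of its length), with grey bars for the replicated list and lines for the own lists of replicates 1 and 2; gene names mark positions only. The bins of Hoxb3 and Tanc2 stand highest, at 157450 and 154748 bases in the replicated list. The bin of Myh1 lies near 0, at 669 bases, and the bin of Ccl2 has 6578.

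Adjacent dense bins formed broader zones. In 6 runs of at least 3 neighbouring bins, each bin was above the mean of the chromosome. The run from 94 to 100 Mb held 18.7% of all covered bases (17.1% in replicate 1 and 16.1% in replicate 2) and 191 protein-coding starts. The run from 101 to 106 Mb held 15.4% (14% and 14.1%) and 117 starts. Across the 119 bins, covered bases rose with the number of protein-coding starts (Pearson's r 0.424, Spearman's rho 0.664) and with GC content (r 0.338, rho 0.532). These are descriptions over neighbouring bins of the same libraries. Peaks were also dense in places without a gene start: the bin from 18 to 19 Mb held 0 protein-coding starts and 35507 covered bases (45186 in replicate 1 and 57534 in replicate 2). It holds much of the body of Meis1, a homeobox gene of blood stem cells (18879817 to 19018985, minus strand), whose start lies in the next bin. The whole body of Meis1 and the 5 kb on each side of its start had 0 peak bases in each of the 3 lists, so the peaks of this bin lay outside the gene. The choice of this bin followed from its values.

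Long stretches held no replicated peak. The longest ran for 3280737 bp (90695581 to 93976317), from Tom1l1, an adaptor in endosomal sorting, to Spag9, a scaffold protein of JNK signalling. The own lists had 320 bp there in replicate 1 and 2853 bp in replicate 2. It held 7 protein-coding genes, among them the neural gene Car10, the kinesin gene Kif2b and the nucleoside diphosphate kinase genes Nme1 and Nme2. The second stretch (38187070 to 40778927, 2591858 bp) began past Tenm2, a teneurin adhesion receptor of neurons. It held the 4 protein-coding genes Mat2b, Hmmr, Nudcd2 and Ccng1. Bins with under 1000 covered bases also ran together: from 63 to 68 Mb, 5 such bins held 1307 replicated peak bases in all (5876 in replicate 1 and 7484 in replicate 2) and 33 protein-coding starts.

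Peaks lay close to each other. The median gap between neighbours was 771 bp, and 74.0% of gaps were at most 3 kb, against 1541 bp and 60.1% on the other chromosomes. Peaks joined across gaps of up to 3 kb gave 1588 domains, of which 618 (38.9%) were a lone peak, against 53.3% elsewhere. Domains of 10 kb or more numbered 123, or 7.75% of the chromosome's domains, where the share over all chromosomes was 3.49%. They held 37.5% of the chromosome's covered bases. Own peaks joined in the same way gave 207 such domains in replicate 1 and 306 in replicate 2, so the count was not stable between lists. None of the 207 long domains of replicate 1 lacked a peak of replicate 2, and none of the 306 of replicate 2 lacked a peak of replicate 1.

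Most long domains held no start of a protein-coding gene. Of the 123, 53 were intergenic, 38 lay inside a protein-coding gene without its start, 12 reached partly into a gene without its start and 20 held a start. Together they spanned 2.04 Mb of a chromosome with 13.4 protein-coding genes per Mb, and 50.7% of its assembled sequence lies between genes. The counts to be met from position alone were not computed, so these counts do not show that long domains avoid starts. Peaks covered 41.7% of their span, and 32 overlapped a non-coding gene. In single long domains the own peaks of replicate 1 covered a median of 36.2% (range 12.0% to 65.9%) and those of replicate 2 a median of 39.5% (range 15.3% to 68.1%).

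Tanc2 held the longest domain (105854755 to 105917995, 63241 bp), which began 264769 bp past the gene's start. Its bases were covered over 43.0% by replicate 1 and 54.4% by replicate 2. The gene spans 339319 bp and held 8 long domains, with 32.9% of its body covered (28.1% in replicate 1 and 35.5% in replicate 2). Within 1 kb of its outermost start each list had 0 bases. Divided into 10 equal parts from start to end, the gene was covered most in its 9th part, 54.1% (48.3% in replicate 1 and 54.8% in replicate 2), and least in its 4th, 20.9% (23.1% and 21.9%). In replicate 1 the least covered part was the 6th, at 17.5%. The lowest share of any part in any of the 3 lists was 17.5%, so peaks ran along the whole gene.

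Skap1 held the third-longest domain and the one after it (96715833 to 96754194, 38362 bp, and 96573454 to 96606906, 33453 bp) and 9 long domains in all. Peaks covered 28.4% of its body of 294538 bp (26.8% in replicate 1 and 32.2% in replicate 2), with 0 bases within 1 kb of the start in each list. Foxi1, a forkhead factor of the inner ear and kidney, lay at the edge of the fifth domain (34171364 to 34204482, 33119 bp). That domain began 3607 bp past the start, took in the last 3.86% of the short gene and ran on beyond its end. Ikzf3, an Ikaros family factor of B cells, held the sixth (98512585 to 98545317, 32733 bp). This domain lay near the start: it began 714 bp past it, and the third of 10 parts of the gene was covered over 92.3% (84.3% in replicate 1 and 77.5% in replicate 2).

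The last 4 of the 10 longest domains had little gene body. The seventh (96868776 to 96899387, 30612 bp) lay between the coat protein gene Copz2 and Cdk5rap3 and overlapped the non-coding genes Gm11523 and Gm11524. The eighth (96161040 to 96190809, 29770 bp) ran from the end of Ttll6, a tubulin polyglutamylase gene, towards the HoxB cluster over the non-coding gene Gm11535. The ninth (78699866 to 78728977, 29112 bp) lay between the kinase gene Nlk and the cyclin gene Ccnq over the non-coding gene Gm11197. The tenth (94734104 to 94762459, 28356 bp) held all of Cdc34b, which encodes a ubiquitin-conjugating enzyme, and overlapped the non-coding gene Gm11545. The 9 domains described had between 39.5% and 56.4% of their bases covered in each replicate, and the replicate with the higher share differed from domain to domain.

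**Figure D2:**
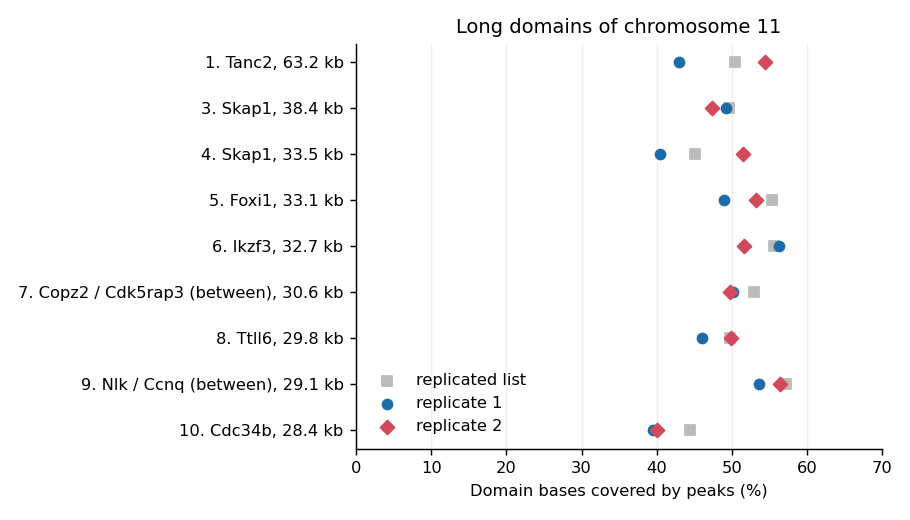
Share of bases (%) covered by peaks in 9 of the 10 longest domains, with a square for the replicated list, a circle for replicate 1 and a diamond for replicate 2. Shares of both replicates lie between 39.5% and 56.4%, and the wider gaps between replicates are at Tanc2 (43.0% and 54.4%) and the shorter Skap1 domain (40.4% and 51.5%).

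Few gene starts carried a peak. A start was called marked where at least 1 base within 1 kb of the outermost annotated start was in a peak. By this rule 107 of 1637 protein-coding genes were marked, or 6.54% (exact 95% interval 5.39% to 7.84%, for counting error only), where the share over all chromosomes was 3.0%. Replicate 1 marked 147 and replicate 2 marked 189 starts, of which 113 were the same genes, and 92 of the 107 were marked in both own lists. Within 5 kb of the start 339 genes had a peak (20.7%, with 10.4% over all chromosomes), and within the gene body 298 did (18.2%, with 11.5%). These higher shares stand beside a chromosome that is more covered as a whole. The marked starts had few bases, with a median of 380 bp and a range of 3 to 1827 bp of the 2 kb window.

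Coverage dipped at the start itself. In the 500 bp after the start peaks covered 1.41% of bases (1.41% in replicate 1 and 2.06% in replicate 2), against 3.30% in the 500 bp that begin 5 kb upstream (3.52% and 3.99%). It rose again to 2.48% by the window that begins 1.5 kb downstream. Over the whole chromosome 3.29% of covered bases lay in promoters, 2.59% in exons, 34.9% in introns and 59.2% between genes, while the assembled sequence is made up of 3.87%, 3.62%, 41.8% and 50.7% of these. Promoters are here the 2 kb centred on the start of each annotated protein-coding transcript.

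**Figure D3:**
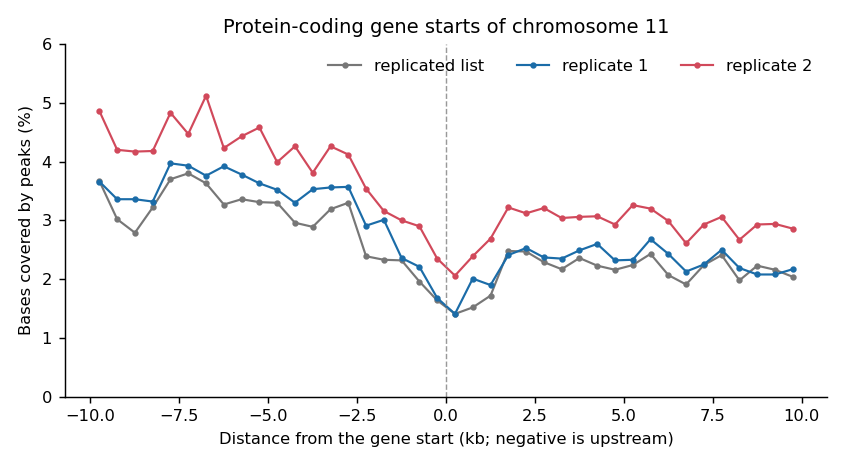
Share of bases (%) covered by peaks in windows of 500 bp, against distance (kb) from the outermost starts of 1637 protein-coding genes, for the replicated list and each replicate's own list. All 3 lines are lowest in the window just after the start, at 1.41%, 1.41% and 2.06%.

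The 10 genes with the most peak bases within 5 kb of the start belonged to several tissues. The olfactory receptor gene Olfr1395 had 6062 bases (5637 in replicate 1 and 3756 in replicate 2). Abcc3, an export pump for organic anions in liver and gut, had 5975 (5941 and 5527), and the olfactory receptor gene Olfr223 had 5787 (6590 and 5798). These 3 genes were well covered in both replicates, with the widest gap at Olfr1395. Wfdc21, of the whey acidic protein family of secreted proteins, had 5254 bases, with 3433 in replicate 1 and 5249 in replicate 2. Pdlim4, a protein of the actin cytoskeleton, had 5239 (3760 and 5541). Ccl4, a chemokine of activated immune cells, had 4787 (3584 and 4968). The others were Cdc34b with 4642 bases, Wfdc18 with 4601, the spermatid linker histone gene Hils1 with 4349 and Ace3, a relative of angiotensin-converting enzyme, with 4289. Among them Cdc34b had only 53 bases within 1 kb of the start, so its mark lay at a distance.

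Among gene bodies of at least 5 kb, Slfn1, a Schlafen gene of T-cell growth control, was covered most, over 60.9% (66.8% in replicate 1 and 54.0% in replicate 2). The predicted genes Gm12253 and Gm11541 followed with 54.8% and 41.9%. Gjc1, which encodes the gap junction protein connexin 45, had 40.0% (35.5% and 41.8%), and Tmigd1, an adhesion protein of epithelia, 38.5% (27% and 39.0%). Ikzf3 had 36.2% (37.4% and 37.1%). G6pc, which releases glucose from liver, had 34.8% (31.0% and 36.5%), the thymus epithelium factor gene Foxn1 34.6% (32.8% and 34.8%) and the homeobox gene Dlx4 33.7% (16.1% and 33.0%). Of these 9 genes, only Dlx4 differed by over 1.5 times between the replicates, and 4 had a marked start: Gm11541, Tmigd1, Ikzf3 and Foxn1.

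Related gene clusters on the same chromosome differed widely, as the plot of gene clusters shows. The CC chemokine genes, whose products attract white blood cells, form a cluster from Ccl2 to Ccl1 (82035571 to 82305690) and another from Ccl5 to Ccl4 (83525778 to 83664683). The first had 0 peak bases in the replicated list and in both own lists. The second was covered over 14.2% (14.4% in replicate 1 and 18.3% in replicate 2), with marked starts at Ccl6, Ccl3 and Ccl4. GC content was 44.7% in the first and 44.2% in the second, and the share of repeats masked in the reference was 23.7% and 26.1%. The Wnt signalling ligand pair Wnt3a and Wnt9a (59248033 to 59333552) was covered over 18.9% (19.8% and 23.3%), while the pair Wnt9b and Wnt3 (103727364 to 103817957) had 0 replicated bases and 0.552% and 1.71% in replicates 1 and 2. Their GC contents were 50.9% and 51.8%, and 21.3% and 14.5% of their bases were masked repeats. The marked Wnt pair was covered within its bodies, at 20.8% of Wnt3a and 24.2% of Wnt9a, and neither start was marked.

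Olfactory receptor genes, odour sensors of the nose that lie in several rows on this chromosome, also differed from row to row. In the row from Olfr30 to Olfr311 (58454105 to 58844111) 13.8% of bases were covered (12.8% in replicate 1 and 16.3% in replicate 2), and 17 of 21 starts were marked. The row from Olfr20 to Olfr412 (73350783 to 74366218) had 0.168% covered (0.266% and 0.495%), with 1 of 30 starts marked, that of Olfr411. Masked repeats made up 35.7% of the first row and 51.5% of the second, and GC content was 43.1% and 39.5%. Their part in the difference was not tested. Receptor genes are close copies of each other, and how reads that match several copies were placed is not given in the sources used here. Trim58, which encodes a ubiquitin ligase that helps red cell precursors lose their nucleus, lies inside the marked row (58640465 to 58652404). It had 0 peak bases in its body and 0 within 5 kb of its start in the replicated list and in both own lists, and the nearest replicated peak was 9481 bp from its start. That position was remarked on after the values were seen.

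In the keratin cluster, genes of skin and hair filaments, the peaks stopped part of the way along. Krt222, Krt24, Krt25, Krt26, Krt27, Krt28 and Krt10, which are neighbours at one end, had between 420 and 2676 replicated bases within 5 kb of the start. From Krt12 to Krt42 each gene had 0. Replicate 1 had 7 such genes and replicate 2 had 8, the additional one being Krt12. The 23 keratin-associated protein genes in between (99550130 to 99993994) had 0 peak bases in every list used. Schlafen genes also differed among neighbours: Slfn1 was covered most and Slfn2, whose nearest replicated peak was 52815 bp from its start, had 0 bases within 5 kb in each list.

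Several immune and epithelial clusters were covered in both replicates. The lipoxygenase genes, whose enzymes oxidise fatty acids, had 16.9% covered from Aloxe3 to Alox8 (16.8% in replicate 1 and 22.7% in replicate 2) and 10.1% from Alox12 to Alox15 (10.5% and 13.2%). Of the haem peroxidase genes of granulocytes and glands, Lpo and Epx had replicated peaks within 1 kb of the start and Mpo did not. Those of Epx were met only in replicate 2, with 526 bases there and 0 in replicate 1, and Mpo likewise had 570 in replicate 2 and 0 in replicate 1. Replicate 2 covered 15.1% of that cluster and replicate 1 only 6.14%, so the replicates differed there by over 2-fold. In the Th2 cytokine region Il4 and Il13 had 0 bases within 5 kb of the start in every list, while Il5, a growth factor of eosinophils, had 1675 (1989 and 2509) and the interferon response factor gene Irf1 had a marked start. The HoxB cluster was not evenly covered. From Hoxb13 to Hoxb9 5566 of 74009 intergenic bases were in peaks (6759 and 10298), and Hoxb3 and Hoxb8 had marked starts, whereas Hoxb2 and Hoxb5 had 0 replicated bases within 5 kb of the start. The own lists differed there: Hoxb2 had 0 bases within 5 kb in replicate 1 and 1044 in replicate 2, and Hoxb5 had 350 and 155. Hoxb8, with 183 replicated bases within 1 kb, had 163 in replicate 1 and 477 in replicate 2.

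Measured from the first to the last gene, clusters without replicated peaks belonged to muscle and blood, among others. The muscle myosin heavy chain genes from Myh3 to Myh13 had 0 replicated bases, 0 in replicate 1 and 280 in replicate 2. Within 5 kb of its start, Myh3 at the edge of this span had 418 replicated bases (680 in replicate 1 and 658 in replicate 2). The alpha-globin genes, which encode a chain of haemoglobin and are active in red cell precursors, had 0 replicated bases, 0 in replicate 1 and 387 in replicate 2. Bases just outside this span are not counted. Within 1 kb of the start of Hba-x replicate 1 had 140 bases and replicate 2 had 189. Hbq1a had 198 replicated bases within 5 kb of its start (335 in replicate 1 and 616 in replicate 2). Clusters without replicated peaks inside their span thus included genes of the line's own lineage and of muscle, but most genes of the chromosome had no peak nearby either. Within 5 kb of the start, 1 of the 5 alpha-globin genes and 1 of the 6 myosin genes had a replicated peak. The share among all protein-coding genes of the chromosome was 20.7%, so these counts set neither cluster apart. The Cd300 receptor genes of myeloid cells, from Cd300a to Cd300lf, were nearly free at 0.373%.

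**Figure D4:**
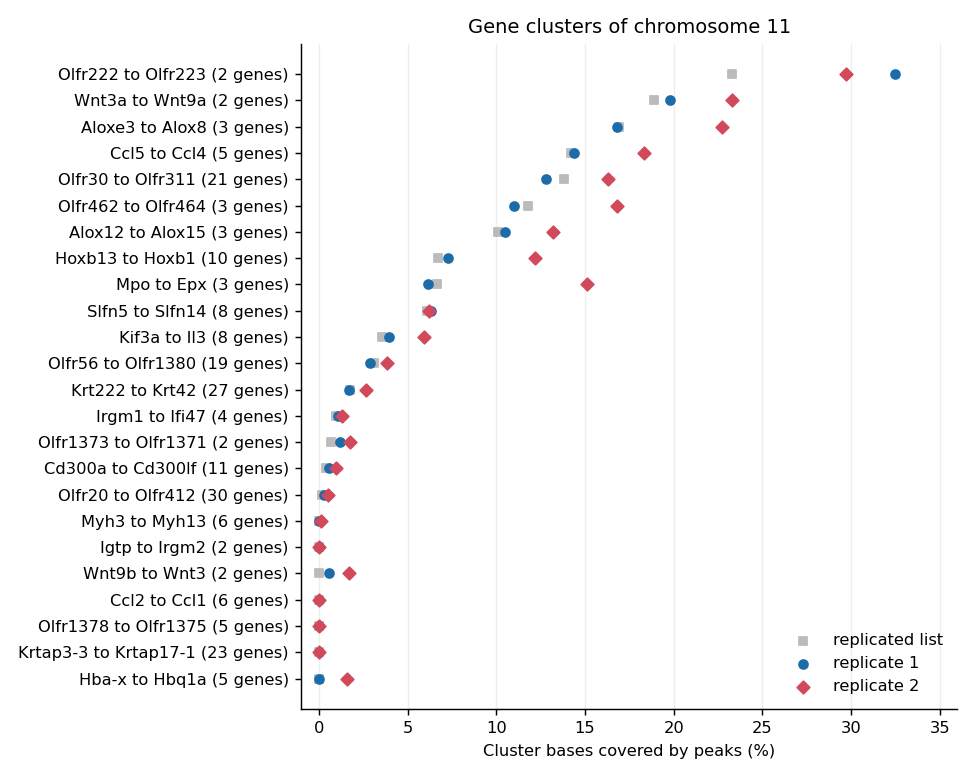
Share of bases (%) covered by peaks in gene clusters of chromosome 11, each measured from its first to its last gene, with a square for the replicated list, a circle for replicate 1 and a diamond for replicate 2. Olfr222 to Olfr223 is covered most, over 23.3% in the replicated list, Ccl5 to Ccl4 over 14.2% and Ccl2 to Ccl1 over 0%.

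Gene lists by role gave small counts, to be read beside the 6.54% of all protein-coding starts of the chromosome that were marked. None of 23 housekeeping and ribosomal genes, such as Rack1, Canx, Vdac1 and the ubiquitin gene Ubb, had a marked start or a replicated base within 5 kb, and Rpl23a alone had any in the own lists, with 204 bases in replicate 1 and 151 in replicate 2. Of 10 erythroid genes 1 had a marked start, Slc4a1, the anion exchanger of red cells, with 2099 bases within 5 kb (2080 and 1274). The own lists marked 3 of these 10 starts in replicate 1 and 2 in replicate 2. The signalling genes Stat5b and Stat5a had 1184 (2056 and 517) and 654 (695 and 331) bases within 5 kb. Neither had a marked start in the replicated list, but Stat5b had 401 bases within 1 kb in replicate 1 and 0 in replicate 2. Of 8 genes of the Polycomb machinery and its opposing demethylase 0 were marked, and the most covered were the methyltransferase gene Ezh1 with 658 bases within 5 kb and Epop with 241. Kdm6b, Suz12, Pcgf2 and Cbx8 had 0. Of 24 genes of other blood lineages 4 were marked: Tbx21 of helper T cells, Ikzf3, the lymph node homing receptor gene Ccr7 and the eosinophil gene Epx, the last marked in the own list of replicate 2 only. Ccr7 had 3869 bases within 5 kb (3757 and 2703), Tbx21 2422 (1980 and 2641) and Ikzf3 1230 (2272 and 1121). Within 1 kb of its start Tbx21 had 135 replicated bases, with 287 in replicate 1 and only 4 in replicate 2.

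Of 21 developmental transcription factor genes 3 were marked, Meox1, Foxn1 and Tbx21, and 10 had a peak within 5 kb, where 20.7% of all protein-coding genes of the chromosome had one. Tbx21 is counted here and among the other blood lineages. Meox1, a factor of the somites, had 2636 bases (2569 in replicate 1 and 2418 in replicate 2) and Foxn1 3062 (3179 and 3609). Meis1, Otx1, Tlx3 and Ebf1 had 0 replicated bases within 5 kb. Sox9, a factor of cartilage and testis, also had 0, and its nearest replicated peak was 850551 bp away. Of 8 tumour suppressor genes Prkar1a and Rnf43 were marked, with 1393 and 782 bases within 5 kb, and Nf2, Trp53, Hic1 and Nf1 had 0. Rnf43 had 793 bases within 1 kb of the start in replicate 1 and 0 in replicate 2. Of 4 genes listed as imprinted, or known for expression from 1 parental copy, Ddc was marked, with 1818 bases within 5 kb of the start (1539 and 2279). Whether the 4 are expressed in this way in MEL cells was not measured. Grb10, Commd1 and Zrsr1 had 0 replicated bases within 5 kb. The body of Grb10 did hold peaks, with 3125 bases (4627 in replicate 1 and 7115 in replicate 2). These counts are descriptions with no test, and the lists are short.

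The replicates agreed on regions more than on single peaks. Of the 6098 replicated peaks, 4765 overlapped both own lists by at least 1 bp, or 78.1% (exact 95% interval 77.1% to 79.2%), where 72.4% did over all chromosomes. A further 452 overlapped replicate 1 only, 859 replicate 2 only and 22 neither. Of replicate 1's 9769 own peaks on the chromosome 57.2% overlapped a peak of replicate 2, while 43.4% of the 12904 peaks of replicate 2 met a peak of replicate 1. On the other chromosomes these shares were 42.9% and 27.9%. Part of a higher share follows where more of a chromosome is covered in both lists, and its size was not measured. Allowing 3 kb between peaks brought the shares to 95.4% and 87.8%. The bases shared by both own lists were 23.9% of those in either, and 14.5% on the other chromosomes. Both lists were called against 1 shared control.

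Stronger and wider peaks overlapped more often. With own peaks in 4 equal groups by the authors' −log10 p, the overlap in replicate 1 went from 43.8% in the weakest group, with a median width of 164 bp, to 75.9% in the strongest, with 296 bp. In replicate 2 it went from 30.7% at 167 bp to 64.7% at 297 bp. Among domains, 70% of those up to 1 kb were met by peaks of both own lists, 98.1% of those of 1 to 3 kb, 99.8% of those of 3 to 10 kb and all 123 longer ones. A longer domain offers more bases to meet, so these shares are a description.

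Per 1 Mb bin the own lists ran together (Pearson's r 0.990, Spearman's rho 0.986) over 119 bins, which share the control and the genome. Replicate 2 had more covered bases in 83 of the 84 bins where at least 1 list had 5000, with a median ratio of 1.33 and a range of 0.967 to 3.39. The ratio of the totals was 1.31. The exception was the bin from 55 to 56 Mb, with 52076 bases in replicate 1 and 50340 in replicate 2. The largest ratio was in the bin from 15 to 16 Mb, which holds no protein-coding start, with 1673 and 5668 bases. The bin from 26 to 27 Mb, with the Fanconi anaemia gene Fancl and the kinase gene Vrk2, had 22081 and 52141.

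**Figure D5:**
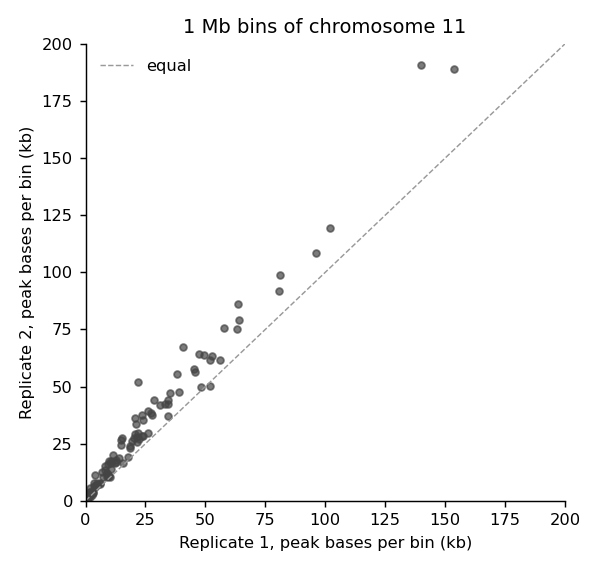
Peak bases (kb) per 1 Mb bin of chromosome 11 in replicate 2 against replicate 1, 1 point for each of 119 bins, with a dashed line where both are equal. Of the 84 bins with more peak bases, 83 lie above the line. The top 2 points are the bin that holds Skap1 and HoxB and the bin of Tanc2.

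In base composition the peak centres were close to the rest of the chromosome and rarely CpG-rich, as in most of the printed sequences. No annotation of CpG islands was used, and CpG richness was not scored outside the central 200 bp of a peak. The 200 bp at peak centres had a median GC content of 44.5%, and tiles of 200 bp along the chromosome one of 44.0%. At least 1 CG was present in 78.7% of centres and 74.0% of tiles. Only 17 centres, or 0.279%, were CpG-rich (GC of at least 50% and at least 0.6 of the CG count that base composition gives), against 1.42% of tiles. The own lists had 0.297% in replicate 1 and 0.496% in replicate 2. Masked repeats made up 20.7% of the centres and 30.6% of the tiles. The richest centres, with 24 and 21 CG in 200 bp, lay 137 and 310 bp from the start of Rasl10a, a Ras-like GTPase gene, and both were in both own lists. Of the 17, 4 lay within 1 kb of a start and 15 were in both own lists. In windows of 1000 bp around gene starts, the 107 marked ones had a median of 15 CG and the 1530 others a median of 50.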

How the data were processed

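H3K27me3 was measured in 2 replicates of MEL cells (1 group). Per the deposited text descriptions, each replicate's peaks were called by the authors on mm10 alignments against 1 control alignment that both share, the pooled list on the alignments of both, and the replicated list was made out of these 3 lists. The rule for keeping a peak is not given in the sources used here, nor are aligner and caller. The authors deposited for each peak a signal value, a score whose definition is not stated, and −log10 p and −log10 q values. Read depth is unknown, since the lists give none. An older mm9 list (6013 of 40712 peaks on chromosome 11) was only counted.

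Coverage was taken from the union of peaks, and peaks within 3 kb were joined into domains. Genes were protein-coding genes of GENCODE mouse release 21, and sequence was the NCBI GRCm38 reference, whose chromosome 11 length the peaks fit. Clusters were split at gaps over 500 kb between members. Intervals are exact (Clopper-Pearson). No test between conditions was possible. Genes named are those in the 10 longest domains, the 10 with most bases near the start, the 10 with the most covered bodies, up to 3 leading and all marked members of each list, up to 4 unmarked members, and those at the ends of the 3 longest free stretches; some items this rule picks are not reported here, and genes outside it were named after their values were seen. The members and the 22 gene lists were chosen with earlier results of these data known. The alternatives were the pooled list, each own list, −log10 q of at least 2, other joining distances, windows and overlaps, and shifted bins. Interval code was tested on simulated data. Python 3.11.15, numpy 2.4.6, pandas 2.3.3, scipy 1.17.1, matplotlib 3.10.9 and samtools 1.23.1 were used.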

Additional observations from a re-analysis of the deposited data

How the results depend on the processing

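Counts depended on the list and the thresholds more than the location of the peaks did. Leaving out a replicate means using the other's own list. The covered share of 1.86% became 2.05% to 2.68% without 1 replicate, 2.37% in the pooled list and 0.500% with −log10 q of at least 2. The 123 domains of 10 kb or more became 207 to 306 without 1 replicate, 213 in the pooled list, 9 with −log10 q of at least 2, and 16 or 267 with peaks joined within 1 kb or 10 kb. The 107 marked starts became 147 to 189 without 1 replicate, 31 with −log10 q of at least 2, 221 with 2.5 kb on each side and 39 with 500 bp covered. The share of bases in the 10 densest bins, 39.8%, became 34.1% to 36.1% without 1 replicate, 37.3% in the pooled list, 50.4% with −log10 q of at least 2 and 37.5% with bins shifted by 500 kb. Bins that held a peak stayed within 1.5 times of 100 in every alternative run, at 112 to 113 without 1 replicate and 77 with −log10 q of at least 2. The share of replicated peaks in both own lists, 78.1%, became 60.9% with 50% of a peak covered and 96.8% with −log10 q of at least 2. Replicate 1's overlap of 57.2% became 40.9% with 50% covered and 95.4% within 3 kb, and replicate 2's of 43.4% became 29.5% and 87.8%. Shorter joining distances, narrower rules and fewer peaks lower these counts by construction; the cause of the differences between the lists was not tested. No paired analysis was possible because there is only 1 group. Depth is unknown, so how far it limits the weaker list could not be measured.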
